A study of Mus musculus with 2 samples.

Results

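The musclin and natriuretic peptide system was followed here through 9 genes, Ostn, Nppa, Nppb, Nppc, Npr1, Npr2, Npr3, Prkg1 and Prkg2, of 19938 genes measured in all. They were chosen by gene name, and the set was drawn up with the low Ostn value of the transgenic array already known, so every difference between the genotypes below is a description of measured values. The muscle came from the hindlimbs of male C57BL/6J mice on standard chow, with 1 Affymetrix array from mice carrying a Syn4 transgene, which overexpresses syntaxin 4, and 1 from wild-type mice. How many mice stand behind each array, their age and the promoter that drives the transgene were not stated in the labels. Values are log2 intensities after RMA, the robust multi-array average that puts probe-level signals on a common log scale. Every difference is transgenic minus wild type. With 1 array per genotype there is no measure of the spread between mice, so no value has an error, no difference was tested, and a difference cannot be set against variation between animals. As bulk tissue was measured, fewer cells of a type and less RNA per cell cannot be told apart.

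Musclin, also called osteocrin, is a peptide secreted by muscle fibres and by bone-forming cells, and part of its sequence resembles the natriuretic peptides. The natriuretic peptides act through receptors that are themselves guanylyl cyclases: atrial (ANP, from Nppa) and B-type peptide (BNP, from Nppb) bind NPR1, whereas C-type peptide (CNP, from Nppc) binds NPR2, and the cyclic GMP they produce activates the kinases encoded by Prkg1 and Prkg2. NPR3 has no cyclase domain and removes the peptides from the circulation. Musclin binds NPR3 and thereby competes with the natriuretic peptides for their removal. In mouse muscle, Ostn transcripts have been described as abundant in fast fibres and as responsive to exercise, feeding and insulin.

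The musclin transcript was far lower in transgenic muscle, the clearance receptor transcript was higher, and the remaining genes of the set differed little. Ostn was 4.44-fold lower and Npr3 1.72-fold higher. The other 7 genes lay within 1.5-fold, between -0.28 and 0.25. A 1.5-fold difference, 0.58 on the log2 scale, was used as a rule of size for genes whose higher value reached 6.79, the midpoint of such higher values across the 19938 genes. By this rule 6 of the 9 genes had enough signal, and the same 6 were at or above 6.79 in both arrays, so none of them entered through 1 genotype alone. The remaining 3, Nppa, Nppb and Prkg2, were under it. Of the 6, 1 was lower past 1.5-fold, beside 1.71% of the 9974 genes that met the level rule, and 1 was higher, beside 2.66%, which makes 2 past the fold either way, beside 4.37%. Since Ostn led to the choice of the set, nothing is read from these counts.

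**Figure D1:**
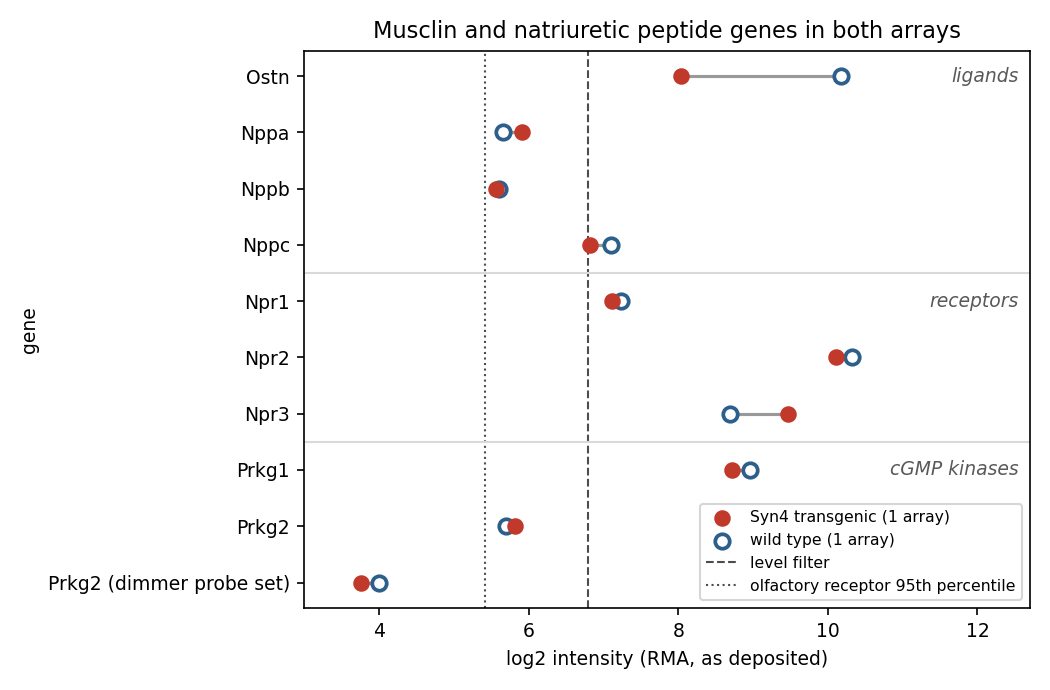
Log2 intensity (horizontal axis) of each gene of the set (vertical axis, grouped by role) in the Syn4 transgenic array (filled) and the wild-type array (open), 1 array each and hence no error bars. The dashed line is the level rule at 6.79 and the dotted line the 95th percentile of olfactory receptor genes at 5.42. The pair of Ostn values is the widest apart, with the transgenic value lower, and the Npr3 pair is the next widest, with the transgenic value higher.

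Among the ligands, Ostn read 8.03 in transgenic muscle, against 10.18 in wild-type muscle, as log2 intensities. The difference was -2.15, which leaves the transgenic signal at 22.5% of that in wild type. Both values are well above 5.42, the 95th percentile of olfactory receptor genes, which serve as an orientation for genes that muscle is not known to use. Ostn is read by 1 probe set, so no second probe set bears on its value. It had the second most negative difference of the 9974 genes. Among itself and the 500 genes nearest to it in mean level, it ranked 2 by size of difference, where the local spread, a scaled median absolute deviation of those genes' differences, was 0.19. That spread mixes technical with biological variation between these arrays and is no substitute for replicates.

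The cardiac natriuretic peptides were near the orientation level in both genotypes. Nppa had 5.91 in transgenic and 5.66 in wild-type muscle. Nppb had 5.56 in transgenic and 5.60 in wild-type muscle. RMA makes no call of detection, so whether either gene is expressed in this tissue cannot be read from the table, and no direction is read from their differences of 0.25 and -0.04. Their genes are neighbours on chromosome 4. Nppc, which encodes CNP, the peptide best known from growing cartilage and from blood vessels, was brighter, at 6.82 in the transgenic and 7.10 in the wild-type array. Its difference of -0.28 was within 1.5-fold, and 120 of the 500 genes of like level differed by more. Ostn was thus the single ligand gene of the set past 1.5-fold.

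Of the 3 receptor genes, only Npr3 was past 1.5-fold. Npr3 read 9.47 in transgenic and 8.69 in wild-type muscle, a difference of 0.78. It ranked 12 by size among the 501 genes of like level, with a local spread of 0.19, and 135 of the 9974 genes had a larger positive difference. Npr1, the receptor for ANP and BNP, read 7.11 in transgenic and 7.23 in wild-type muscle, a difference of -0.12. Npr2, the receptor for CNP, read 10.11 in transgenic and 10.32 in wild-type muscle, a difference of -0.21. Both cyclase receptors lay within 1.5-fold and inside their local spreads, 0.21 for Npr1 and 0.22 for Npr2. Among the 501 genes of like level, Npr1 ranked 276 and Npr2 164 by size, so no direction is read for either. Set side by side, the differences of Ostn and Npr3 lay 2.93 log2 units apart, most of it from Ostn. Whether these differences are linked was not tested.

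The kinase genes gave 1 usable comparison, within 1.5-fold. Prkg1, the main cGMP-dependent kinase of smooth muscle, read 8.72 in the transgenic and 8.96 in the wild-type array, a difference of -0.24. Prkg2, known from intestine, brain and cartilage, was read by 2 probe sets that differed in sign. The brighter had 5.82 in the transgenic and 5.69 in the wild-type array, and the dimmer had 3.76 in the transgenic and 4.00 in the wild-type array. The dimmer lay below the orientation level of 5.42 and the brighter just above it, so no direction is read for Prkg2.

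**Figure D2:**
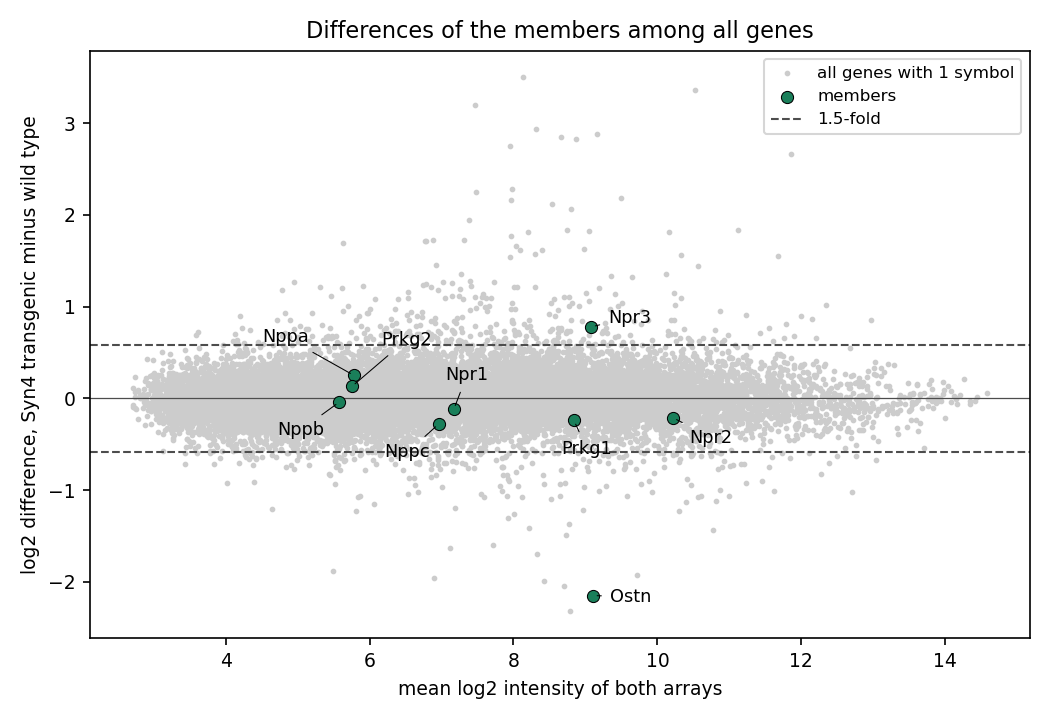
Log2 difference, transgenic minus wild type (vertical axis), against the mean log2 intensity of both arrays (horizontal axis) for all 19938 genes (grey) and the 9 genes of the set (labelled), each from 1 array per genotype. Ostn lies near the lower edge of the cloud at -2.15 and Npr3 above the upper 1.5-fold line at 0.78, whereas the other 7 lie between the dashed lines.

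Of the 9 genes, 7 have a promoter window in the RefSeq table of assembly GRCm38.p6. Ostn and Prkg2 have no entry there. Npr3, the one member past 1.5-fold with an entry, is shown for that reason, as the 250 bases before the transcript start, at chr15:11907372-11907621 on the minus strand. This start lies inside the annotated span of the gene, so it is that of 1 of its transcripts. Capitals mark the single E-box (CANNTG, a motif bound by basic helix-loop-helix factors such as the myogenic regulators, equal on both strands), 39 bases before the start.

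Npr3: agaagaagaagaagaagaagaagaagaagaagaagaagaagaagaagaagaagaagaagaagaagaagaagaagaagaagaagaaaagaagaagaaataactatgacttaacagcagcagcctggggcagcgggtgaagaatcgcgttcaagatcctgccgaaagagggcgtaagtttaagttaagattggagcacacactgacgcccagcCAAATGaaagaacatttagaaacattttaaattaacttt

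The far end of this window is a GAA repeat with an unbroken run of 28 copies over 84 bases, and the window's G and C content of 38.8% was below that of the windows of the other 6 genes, which ran from 54.4% for Nppa to 70.4% for Npr1. An E-box occurs in 66.2% of all 32851 windows of this length, so its presence is common. The core motif of FOXO factors, GTAAACA on either strand, occurs in 3.17% of all windows and in none of the 8 windows of the 7 genes. These are letter matches and do not show whether a factor binds.

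Genes near to Ostn were sought among those that met the level rule, with unnamed gene models left out. Measured as the gap between the differences over these 2 arrays, the nearest were Htra4, Rasd2, Slc40a1, H2-T10 and Neto2. Htra4, a serine protease gene, read 7.67 in the transgenic and 9.72 in the wild-type array, 0.10 from the difference of Ostn. Slc40a1, the iron exporter ferroportin, read 7.62 in the transgenic and 9.94 in the wild-type array, and Rasd2, a small GTPase gene, 7.43 in the transgenic and 9.42 in the wild-type array. H2-T10, one of a family of near-identical histocompatibility genes and therefore uncertain, differed by -1.96. It read 5.91 in the transgenic and 7.87 in the wild-type array, so it reached the level rule in the wild-type array only. Neto2, an accessory subunit of kainate receptors, differed by -1.93. A likeness over 2 arrays says only that the differences are of similar size. The genes next to Ostn on chromosome 16 did not show a difference of that size. Il1rap differed by 0.24 and Gmnc by 0.00 on one side, and Uts2b by -0.05 and Ccdc50 by -0.26 on the other. Ccdc50, at 10.32 in the transgenic and 10.58 in the wild-type array, was the only one of these 4 above the level rule.

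Around the 9 genes, 4 lists cover how the peptides are processed, how cGMP is made and broken down, and what its kinases act on, with 48 genes measured and 24 above the level rule. None of the 24 was past 1.5-fold, beside 4.37% of all genes (1 of them, Pln, passed it at -0.60 after repeated quantile normalization), and the differences of the 48 ran from -0.57 to 0.54. Among 6 genes of peptide processing and degradation, the median difference was -0.03, against 0.00 over all genes. Mme, which encodes neprilysin, the protease that degrades natriuretic peptides, was highest at 0.54, with 7.82 in the transgenic and 7.28 in the wild-type array. Ide, the insulin-degrading enzyme that also cleaves ANP, and Pcsk6, a convertase known to activate corin, were lowest, both at -0.19. Furin, the convertase of several peptide precursors including those of BNP and CNP, was equal at 9.77 in both arrays. Corin, the heart protease that cleaves the ANP precursor, was under the level rule, with 5.69 in the transgenic and 5.74 in the wild-type array.

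Among 14 genes of other guanylyl cyclases, their ligands and nitric oxide synthases, the median was -0.01 and 5 were above the level rule. Nos1, the neuronal nitric oxide synthase of the muscle fibre membrane, was highest, with 10.44 in the transgenic and 10.18 in the wild-type array. Gucy2e, a cyclase of the retina, was lowest at -0.24 and under the level rule. The soluble cyclase subunit genes Gucy1a1 and Gucy1b1, which respond to nitric oxide, differed by 0.18 and 0.03, and the further subunit genes Gucy1a2 and Gucy1b2 by -0.10 and -0.11, of which Gucy1b2 was under the level rule. The soluble cyclase genes, Furin and Corin were picked for naming once the values were known.

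The list of phosphodiesterases that hydrolyse cGMP had a median of 0.07 over 16 genes, of which 5 were above the level rule. It includes Pde6d, Pde6g and Pde6h, whose products do not themselves hydrolyse cGMP, and Pde6d was among the 5. Pde3b, the isoform through which insulin lowers cyclic AMP in adipocytes, was highest at 0.45, with 6.96 in the transgenic and 6.51 in the wild-type array. It thus reached the level rule in the transgenic array only. Pde1b was lowest at -0.26, under the level rule. Pde5a, the cGMP-specific isoform of smooth muscle, differed by 0.05 and Pde9a, an isoform that acts on natriuretic peptide cGMP in the mouse heart, by 0.03. Both were under the level rule and, like Rgs2 and the Pde6 genes, were picked for naming once the values were known. Substrates and partners of cGMP-dependent kinase had a median of 0.06 over 12 genes. Pln, the calcium pump inhibitor phospholamban, was lowest at -0.57, just inside 1.5-fold, with 6.82 in the transgenic and 7.39 in the wild-type array. Ppp1r12a, the myosin phosphatase targeting subunit, was highest at 0.26. Rgs2, a regulator of G protein signalling that the kinase activates, differed by -0.52, with 7.03 in the transgenic and 7.55 in the wild-type array. Phospholamban is also a slow fibre gene, and slow fibre markers were lower in the same array, as given with the marker lists. The part of that in the difference of Pln was not tested.

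**Figure D3:**
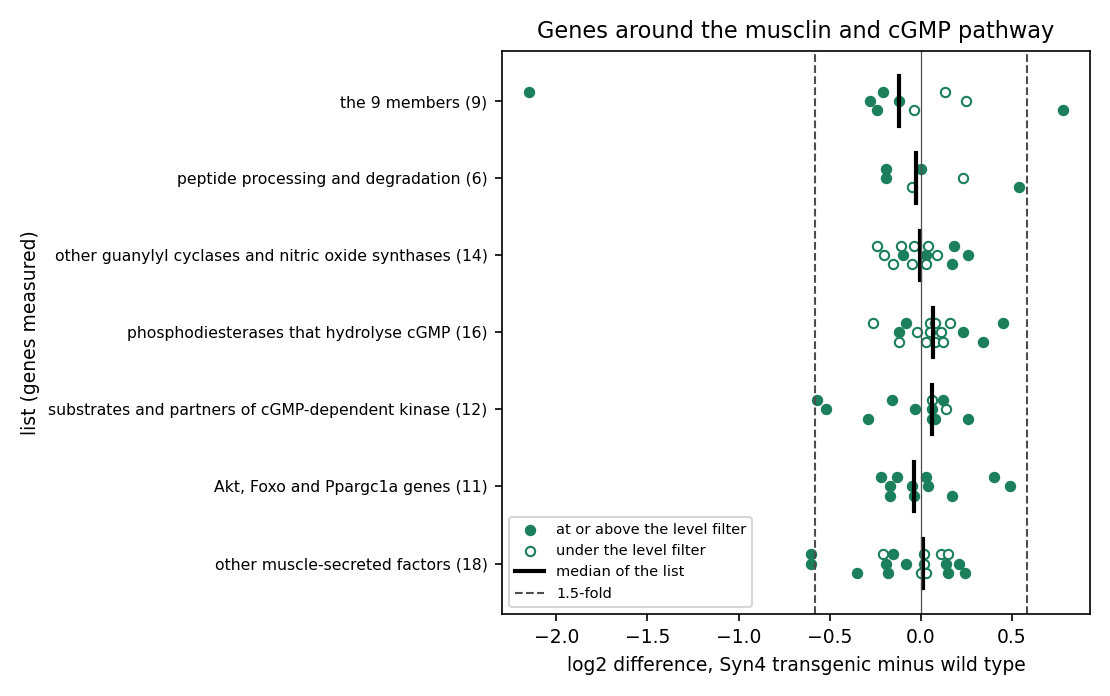
Log2 difference, transgenic minus wild type (horizontal axis), of the 9 genes of the set and of the genes of 6 lists around them (rows, with the number measured), 1 point per gene. Bars are list medians and dashed lines mark 1.5-fold. Ostn at -2.15, Npr3 at 0.78, and Mstn and Il15 at -0.60 are the points outside the dashed lines.

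A further pair of lists concerns the setting of musclin in muscle. The first holds 11 genes of the Akt, Foxo and Ppargc1a group. In mouse muscle cells, insulin signalling through Akt keeps FOXO1 out of the nucleus, and FOXO1 has been described as holding down Ostn, while musclin has been linked to Ppargc1a, the coactivator of mitochondrial biogenesis. None of the 11, all above the level rule, was past 1.5-fold, beside 4.37% of all genes, and their median was -0.04. Foxo1 was highest at 0.49, with 9.14 in the transgenic and 8.65 in the wild-type array, and Esrra, a nuclear receptor partner of the coactivator, was lowest at -0.22. Foxo3 differed by 0.40 and Ppargc1a by -0.05 on the brighter of its 2 probe sets. Foxo3 and Ppargc1a were picked for naming once the values were known.

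The second holds 20 other factors that muscle secretes, of which 18 were measured and 11 were above the level rule. Of these, 2 were lower past 1.5-fold, beside 1.71% of all genes, and 0 were higher, beside 2.66%. Mstn, myostatin, which restrains muscle growth, read 10.58 in the transgenic and 11.18 in the wild-type array, and Il15, a cytokine made by muscle fibres, read 7.08 in the transgenic and 7.68 in the wild-type array. Both differed by -0.60, far less than Ostn. Sparc, a secreted matrix protein, was highest at 0.24. The list's median of 0.01 was close to that of all genes, and Fndc5 and Gdf15 were not analysed here. Over all 6 lists, 2 of the 46 genes above the level rule were past 1.5-fold, a share of 4.35% that was close to the 4.37% of all genes.

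Both arrays read as skeletal muscle, and markers of some fibre types and other cells differed along with Ostn and Npr3. All 10 fibre markers, such as Acta1, Ckm and Ttn, were bright, between 13.53 and 14.45 in transgenic muscle and between 13.48 and 14.44 in wild-type muscle, with a median difference of 0.04. The 11 fast fibre markers, the fibres in which Ostn is known to be abundant, were near equal. Their median was 0.03, their ends were Actn3 at -0.06 and Myh1 at 0.36, and their summed intensity in the transgenic array was 1.03 times that in wild type. The fast markers were very bright, from 13.28 to 14.33 in transgenic and from 13.11 to 14.36 in wild-type muscle. Whether so bright a signal could still show a difference in fast fibre content was not tested. All 8 slow fibre markers were lower past 1.5-fold, beside 1.71% of all genes that met the level rule. They ran from Myl3 at -1.02 to Tpm3 at -0.63, with a median of -0.86. Their summed intensity was 0.578 times that in wild type. The difference of Ostn was thus larger in size than that of any slow or fast marker on these lists, and the part of fibre makeup in it was not tested. Bone and cartilage markers, listed because bone-forming cells also make Ostn, were dim. Of 7 measured, 1 passed the level rule, Col2a1 at 7.11 in the transgenic and 7.22 in the wild-type array, and the ends were Col10a1 at -0.35 and Dmp1 at 0.25. The osteoblast markers Ibsp, at 4.01 in the transgenic and 4.20 in the wild-type array, and Sp7, at 5.19 in the transgenic and 5.20 in the wild-type array, lay below the orientation level.

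White adipocyte markers were higher in the array in which Npr3 was higher. Adipocytes are a known site of Npr3 expression. All 7 measured markers were higher past 1.5-fold, beside 2.66% of all genes that met the level rule. These markers ran from Slc7a10 at 0.86 to Lep, leptin, at 3.20, with a median of 1.62. They ranged from 6.98 to 9.83 in transgenic muscle and from 5.86 to 8.43 in wild-type muscle, where 3 of the 7 were under the level rule, and their summed intensity in the transgenic array was 3.24 times that in wild type. The difference of Npr3, 0.78, was smaller than that of each of these 7 markers. Pde3b, also an adipocyte gene, differed by 0.45, within 1.5-fold, and reached the level rule in the transgenic array only. The part of adipocytes in the differences of Npr3 and Pde3b was not tested.

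The marker lists of other cell types had smaller median differences than the adipocyte list. Single markers on them still passed 1.5-fold. Lum, Cnn1 and Egr2 were higher past it, beside 2.66% of all genes that met the level rule. Myh6 was lower past it, beside 1.71%. Fibroblast markers were higher in 8 of 8 genes, from Cd34 at 0.10 to Lum, lumican, at 0.74, with a median of 0.29 and a summed intensity of 1.26 times that in wild type. Smooth muscle and pericyte markers, from cells in which Npr1 and Prkg1 are prominent, had a median of 0.16 over 13 genes. They ran from Kcnj8 at -0.34 to Cnn1 at 0.88 and summed to 1.08 times the wild-type intensity. Cnn1, at 7.35 in the transgenic and 6.47 in the wild-type array, reached the level rule in the transgenic array only. Npr1 and Prkg1 differed by -0.12 and -0.24, each beside a local spread of 0.21, and the smooth muscle and pericyte markers went both ways. No relation between them is read from these values. Endothelial markers, from cells that also carry Npr1 and Npr3, had a median of 0.00 over 11 genes, from Kdr at -0.44 to Vwf at 0.32, and summed to 0.931 times the wild-type intensity. Schwann cell markers had a median of 0.41 over 6 genes, from Sox10 at 0.09 to Egr2 at 1.08, with 3 of the 6 above the level rule, of which Sox10 and Egr2 reached it in the transgenic array only. Cardiomyocyte markers, listed for Nppa and Nppb, had a median of -0.09 over 6 genes, from Myh6 at -0.67 to Tnnt2 at 0.23. The atrial light chain gene Myl7 was at 5.69 in the transgenic and 5.85 in the wild-type array and the cardiac troponin gene Tnni3 at 5.85 in the transgenic and 6.09 in the wild-type array. These genes, Ryr2 and Mybpc3 were under the level rule. The other 2 markers passed it, with Tnnt2 at 8.49 in the transgenic and 8.26 in the wild-type array and Myh6 at 7.42 in the transgenic and 8.09 in the wild-type array. The part of these cell types in the members' differences was not tested.

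**Figure D4:**
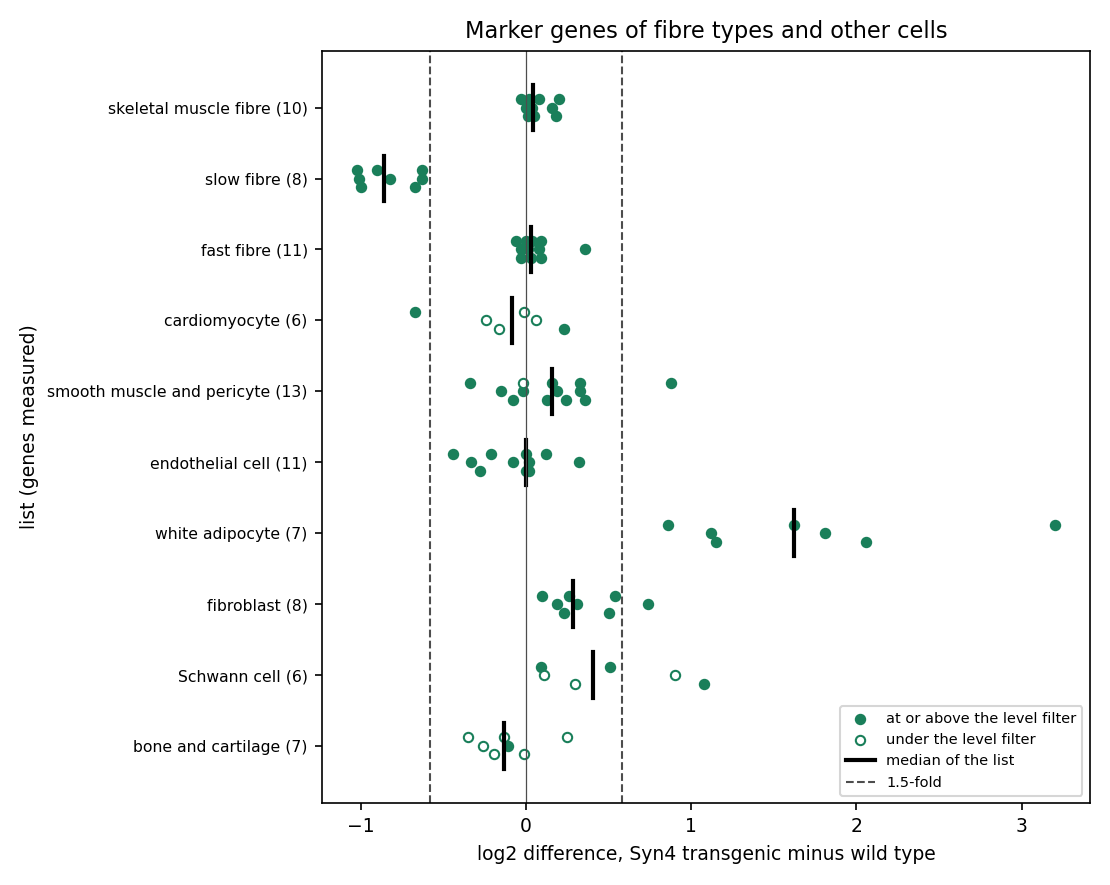
Log2 difference, transgenic minus wild type (horizontal axis), of marker genes of fibre types and other cells (rows, with the number measured), 1 point per gene from 1 array per genotype. Bars are list medians and dashed lines mark 1.5-fold. All 8 slow fibre markers lie left of the lower line, all 7 white adipocyte markers lie right of the upper line, and the fast fibre markers lie close to 0.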

How the data were processed

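The authors deposited log2 intensities for 35556 probe sets on 2 arrays. Partek and RMA are named in the submitters' processing notes, without versions or steps, and no genome build is stated. The median was 6.06 in each array. Precision is limited by the number of arrays, and RMA can compress large ratios.

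Gene names came from the platform annotation, matched by probe set. The 21789 probe sets with 1 symbol gave 19938 genes, and the brightest probe set on average stood for a gene with several. No probe set with several symbols named a member. Symbols and gene order came from RefSeq (GRCm38.p6), and 1 listed gene was matched through a synonym. As a check of the label, Stx4a read 12.20 in the transgenic and 8.84 in the wild-type array.

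Differences are transgenic minus wild type on the deposited values, without a test, since there is 1 array per genotype. The members and lists were chosen with earlier results of these data known. The text names all members, pathway list genes past 1.5-fold, the ends of each pathway and marker list, the 5 genes nearest to Ostn by difference, and the 2 measured genes on each side of it. Those 5 came from genes that met the level rule, with unnamed gene models left out. Any other gene was picked for naming once the values were known, as the text says of pathway genes and as holds for marker genes given as examples. Alternatives were averaged probe sets, subtraction of a loess curve (span 0.3, with 3 robustifying iterations), centring on medians, repeated quantile normalization, 3 other level rules and a 2-fold threshold. The counting and scaling steps were tested on simulated differences. Python 3.11.15, pandas 2.3.3 and statsmodels 0.14.6 were used.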

Additional observations from a re-analysis of the deposited data

How the results depend on the processing

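Of 112 values recomputed over 22 results under 8 alternatives, 107 were stable. Stable differences and medians kept their side of the threshold and moved by at most 0.1 log2 units, and stable counts moved by at most 1.5 times. Part of this stability was fixed in advance. The array medians were already equal at 6.06, so centring on medians left every result as it was. Averaging probe sets can change only genes with several, and 1 member has several. The 107 are therefore no measure of robustness. Among the stable counts, pathway genes lower past 1.5-fold numbered 3 in place of 2 after repeated quantile normalization, since Pln reached -0.60. None of the values past the threshold changed sign. The small medians of 2 lists did, other guanylyl cyclases at 0.01 after loess and other muscle-secreted factors at -0.01 after quantile normalization. The difference of Ostn ran from -2.19 to -2.15 and that of Npr3 from 0.74 to 0.78 under the scalings. Ostn and Npr3 have 1 probe set each, so averaging probe sets could not alter either value. Of these settings, only loess and repeated quantile normalization could do so. The 5 values labelled as moved were Prkg2, at -0.06 with both probe sets averaged, and 4 counts under the 2-fold threshold. At that threshold 0 members were higher and 0 pathway genes were lower. Of all 9974 genes that met the level rule, 38 were lower and 86 higher. The stricter threshold itself lowers these counts. Low signal limits Nppa, Nppb and Prkg2, and the lack of replicates limits every difference.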
